A study of Mus musculus with 8 samples.

Results

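The genes described here are those of the mouse major histocompatibility complex (MHC, called H2 in the mouse) together with the machinery that loads peptides on their products, measured in stromal cells of the injured small intestine. They were chosen by name alone: every gene whose symbol begins with H2-, and 13 named genes for the light chain, peptide supply, transcription, the invariant chain and costimulation. The rule found 58 of the 53801 genes listed, of which 40 belong to class I, 15 to class II and 2 to costimulation, and 1 (H2-Ke6) to none of these. YFP-positive cells were compared with YFP-negative cells, and class I was set beside class II.

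Class I molecules are made by nearly all nucleated cells. Each pairs a heavy chain with beta-2 microglobulin and displays peptides that the proteasome cut in the cytosol and that the TAP transporter moved into the endoplasmic reticulum, and CD8 T cells read the result. Class II molecules are made mainly by dendritic cells, macrophages and B cells and display peptides from the endocytic route to CD4 T cells, after cathepsins have trimmed the invariant chain (Cd74) and the DM molecule has exchanged the remaining fragment for a peptide. Intestinal stromal cells carry class I constitutively and can be driven to make class II by interferon gamma, through the transactivator Ciita, while Nlrc5 is the matching transactivator of class I.

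The study sorted stromal cells that lack CD45, a leukocyte marker, and CD31, an endothelial marker, from the small intestine of LTBRYFP reporter mice, and split them by YFP. All libraries of both groups came from mice given indomethacin, a cyclooxygenase inhibitor that ulcerates the small intestine, so there was no untreated group. Total RNA was sequenced in 8 libraries, replicates 1 to 4 of YFP-positive cells and replicates 1 to 4 of YFP-negative cells. The sources used here do not state how YFP follows the expression of the lymphotoxin beta receptor, the strain and age of the mice, or whether the libraries are separate animals. The p-values therefore measure no more than the spread of these libraries, which may be technical.

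Total counts per library ranged from 12481608 to 29385718, and 15945 genes passed the count filter. The 2 libraries numbered 2 stood apart from the other 6 on the leading principal component (35.5% of the variance). Fibroblast markers were the most abundant marker list, at a summed 20957 to 34215 CPM (counts divided by the library size after TMM scaling) in YFP-positive libraries and 25324 to 50604 CPM in YFP-negative libraries. Of 6 fibroblast markers, 4 matrix genes (Col1a1, Col1a2, Col3a1 and Dcn) were lower in YFP-positive cells in the edgeR fit paired by replicate number. Their adjusted p was 0.0113, 0.00661, 0.00238 and 0.00200, in that order. At the adjusted p threshold of 0.05, that fit called 1.59% of all genes tested lower. In the edgeR fit on group alone, the adjusted p of each of these matrix genes was 0.99985. The gate genes were low but not absent: Ptprc, which encodes CD45, averaged 5.52 ± 4.68 CPM in YFP-positive cells and 2.60 ± 1.57 CPM in YFP-negative cells, and Pecam1, which encodes CD31, averaged 28.6 ± 14.6 and 25.9 ± 16.3 CPM in the same order (SD, n = 4 each). In bulk RNA, fewer cells of a type and less RNA per cell cannot be told apart. Mitochondrially encoded genes took 7.71% to 9.43% of the counts in YFP-positive libraries and 8.07% to 12.4% in YFP-negative libraries. Libraries of equal number were treated as pairs, since their values deviated together from the group means.

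The promoters of the 4 genes at the centre of the comparison are printed below, from the RefSeq table for GRCm38.p6, each read on the gene's own strand over 250 bases before and 50 bases after the annotated start. They are shown because class I and class II genes share part of their promoter grammar and differ in the rest. Capitals mark exact matches, on either strand, to 4 motifs that were chosen after these sequences had been seen: the kB motif of class I enhancers (GGGATTCCC), an interferon-stimulated element (TTTCNCTTC), the core of the X2 box (TGACG) and the Y box (CTGATTGG, or CCAATCAG on the other strand).
H2-K1, chr17:34000298-34000597, minus strand: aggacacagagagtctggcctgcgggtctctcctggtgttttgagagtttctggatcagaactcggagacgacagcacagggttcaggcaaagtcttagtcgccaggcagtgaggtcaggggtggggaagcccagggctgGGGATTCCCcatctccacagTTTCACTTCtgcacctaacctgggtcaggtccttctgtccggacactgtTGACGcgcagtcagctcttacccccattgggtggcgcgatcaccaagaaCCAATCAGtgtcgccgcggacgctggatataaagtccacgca
H2-D1, chr17:35262844-35263143, plus strand: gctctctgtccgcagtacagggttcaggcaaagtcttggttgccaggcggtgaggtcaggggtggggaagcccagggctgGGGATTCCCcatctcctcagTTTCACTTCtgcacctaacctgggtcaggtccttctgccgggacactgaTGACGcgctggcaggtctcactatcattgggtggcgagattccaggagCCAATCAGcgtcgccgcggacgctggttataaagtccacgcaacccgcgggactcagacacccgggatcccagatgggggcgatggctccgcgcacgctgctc
H2-Aa, chr17:34287774-34288073, minus strand: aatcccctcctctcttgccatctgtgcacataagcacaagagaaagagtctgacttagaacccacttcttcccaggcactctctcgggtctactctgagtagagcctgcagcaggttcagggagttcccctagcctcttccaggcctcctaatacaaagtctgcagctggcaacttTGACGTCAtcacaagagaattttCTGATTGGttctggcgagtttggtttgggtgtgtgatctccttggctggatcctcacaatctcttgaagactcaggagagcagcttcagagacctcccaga
H2-Eb1, chr17:34305617-34305916, plus strand: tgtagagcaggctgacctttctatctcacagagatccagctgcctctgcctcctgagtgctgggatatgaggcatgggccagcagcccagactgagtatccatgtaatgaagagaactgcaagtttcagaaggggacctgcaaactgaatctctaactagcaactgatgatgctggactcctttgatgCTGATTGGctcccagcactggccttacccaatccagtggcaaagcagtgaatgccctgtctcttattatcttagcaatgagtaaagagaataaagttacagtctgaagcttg

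Both class I promoters held all 4 motifs in the same order, with the kB match beginning at position -110 from the annotated start in H2-K1 and at position -170 in H2-D1. The H2-D1 window lies wholly within the gene as placed by GENCODE M21 (35262730 to 35267499), so these positions depend on which start was annotated. The Y box match of both class I promoters is on the other strand from those of H2-Aa and H2-Eb1. Nearer to TGACG, H2-K1 and H2-D1 hold ATTGG on the gene's own strand, left in lower case because only full matches were marked. Which of these stretches acts as the Y box was not tested. H2-Aa held the X2 core, read on both strands where TGACG and its complement overlap within the capitals, and the Y box. H2-Eb1 held the Y box alone. Of the 58 members, 40 had a window in the table, 29 of class I, 9 of class II, 1 of costimulation and H2-Ke6. The kB motif was found in 4 of the 40, all of class I (H2-K1, H2-D1, H2-Q6 and H2-Q7), and in 0.353% of the 32851 windows of all genes. The interferon-stimulated element was found in 8, all of class I, and in 2.44% of all windows. The Y box was found in 20, of which 16 were class I and 4 class II, and in 4.10% of all windows, and the short X2 core in 15 members and in 20.8% of all windows. A member was counted if any of its windows held a match, whereas the shares of all genes are over single windows, so the 2 are not on the same scale. The motifs were chosen with the 4 printed promoters in view, so their matches there are no independent finding. A match is a description of these letters and not a measured binding site.

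Of the 58 members, 30 passed the count filter, 20 of class I, 8 of class II and both costimulation genes. No member passed the adjusted p threshold of 0.05 in either edgeR fit, paired or on group alone, although H2-Aa and Cd74 did in the paired fit under a looser count filter described with them. In the edgeR fit on group alone, 0 of the 30 were called, and 0 genes of the whole table were called higher (0.0%) or lower (0.0%); the lowest adjusted p of a member was 0.99985. When the replicate number was entered as a block, edgeR called 0 of the 30, against 2.28% of all genes tested, 0.696% higher and 1.59% lower, and the lowest adjusted p of a member was 0.181, for H2-Q10. The 111 higher and 253 lower calls of that fit became 212 and 153 when library sizes alone were used for scaling. DESeq2 and limma voom with the block each called 0 members, and the authors' deposited table called 0 of the 31 members to which it gives an adjusted p, the lowest being 0.118 for H2-Aa.

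At an unadjusted p of 0.05 the paired edgeR fit held 6 members that were higher in YFP-positive cells, Cd74, Ciita, Ctss, H2-Aa, H2-Eb1 and H2-Q10, beside 4.69% of all genes tested, and 1 that was lower, H2-Q4, beside 6.42%. Of these 7, 5 were class II genes, among them Ciita, which passed the count filter mainly through YFP-positive libraries. Fitted fold changes were above 0 for 18 of the 30 members, beside 51.0% of all genes tested. The fit on group alone held 2 that were higher, Ciita and H2-Aa, beside 0.978% of all genes, and 0 that were lower, beside 1.06%. The groups of 4 libraries overlapped for all 30 members tested, whereas they did not overlap for 0.69% of all genes on the higher side and 0.859% on the lower side. In all 4 pairs, 4 members were higher in YFP-positive cells (Cd80, Ciita, H2-Q10 and Psmb10), beside 8.86% of all genes, and 2 were lower (B2m and H2-Q4), beside 10.2%.

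The median log2 fold change of YFP-positive over YFP-negative cells in the paired fit was -0.0021 over the 20 class I genes tested and 0.64 over the 8 class II genes tested, beside 0.0048 over all genes tested. The fold changes of class I genes lay between -0.19 and 0.45, and those of class II genes between -0.17 and 1.94. The highest, 1.94, was that of Ciita, which reached the CPM minimum of the filter in 3 YFP-positive libraries and 1 YFP-negative library. The class II median thus includes a gene that entered mainly through the group in which it was higher. The class I intervals were also narrower, with a median half-width of 0.23 on the log2 scale against 1.04 for class II, whose genes also had far fewer counts. The class II median was 0.29 without the pair numbered 2, whose libraries stood apart, over 7 genes because Ciita then failed the count filter, and 0.93 without the pair numbered 3. The difference between the medians of the classes was not tested.

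**Figure D1:**
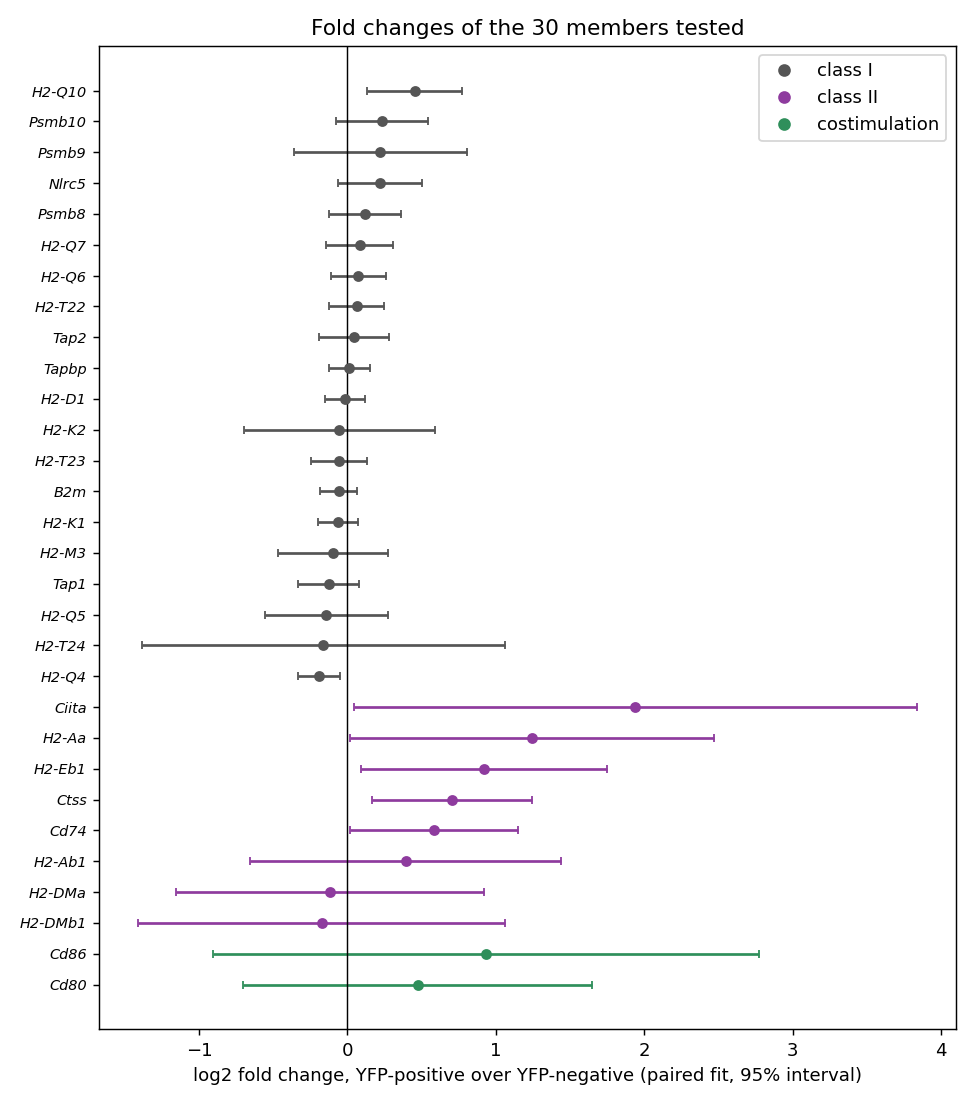
Log2 fold change of YFP-positive over YFP-negative cells for the 30 members tested (points) with the 95% interval of the paired edgeR fit (bars), grouped by class. Class I genes lie close to 0 (median -0.0021), most class II genes lie to the right of 0 (median 0.64), and the median half-width of the intervals is 0.23 in class I against 1.04 in class II.

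The classical class I molecules were among the abundant transcripts of both fractions. B2m, the light chain shared by class I molecules (chromosome 2, 122147686 to 122153083, GRCm38), stood at 885, 923, 936 and 699 CPM in YFP-positive replicates 1 to 4, against 916, 1012, 941 and 721 CPM in YFP-negative replicates 1 to 4. It was lower in the YFP-positive library of each pair, yet the groups overlapped over most of their range. Its log2 fold change was -0.06 ± 0.06 (SE), and the 95% interval ran from 0.881-fold to 1.05-fold (adjusted p = 0.834, paired edgeR).

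H2-K1, a classical heavy chain (chromosome 17, 33996017 to 34000347), stood at 557, 624, 611 and 445 CPM in YFP-positive cells, against 548, 728, 618 and 454 CPM in YFP-negative cells. H2-D1, the other classical heavy chain (chromosome 17, 35262730 to 35267499), stood at 716, 922, 768 and 613 CPM in YFP-positive cells, against 655, 1020, 802 and 608 CPM in YFP-negative cells. In both genes the libraries numbered 2 were the highest and those numbered 4 the lowest of their group, and the groups overlapped almost completely. The 95% interval of the fold ran from 0.874 to 1.05 for H2-K1 and from 0.900 to 1.08 for H2-D1. The signs of these small differences turned when library sizes alone were used for scaling, with log2 fold changes of 0.026 for H2-K1, 0.069 for H2-D1 and 0.028 for B2m.

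Per kilobase of exon, B2m averaged 1001 ± 128 RPKM in YFP-positive cells and 1044 ± 145 RPKM in YFP-negative cells (SD, n = 4 each). It was followed by H2-D1 at 293 ± 50.02 and 299 ± 71.8 RPKM and by H2-K1 at 190 ± 27.8 and 200 ± 39.2 RPKM, in the same order of groups. Tapbp and H2-Q4 came next, with groups that overlapped. They averaged 66.3 ± 12.5 and 63.1 ± 16.8 RPKM in YFP-positive cells and 65.9 ± 14.0 and 71.5 ± 16.4 RPKM in YFP-negative cells. These SDs are over libraries and take no account of the pairs. The most abundant class II member, Cd74, averaged 17.3 ± 10.1 RPKM in YFP-positive cells and 10.005 ± 1.78 RPKM in YFP-negative cells, below each of these class I genes.

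Most other heavy chain genes of class I on chromosome 17 encode nonclassical or Qa and TL series molecules. Some are annotated as pseudogenes, and part of the sequence of these heavy chain genes is shared. Of the distinct 50-base stretches of their GENCODE M21 transcripts, the share also found in another gene was 53.5% for H2-T22, 36.4% for H2-Q4, 36.4% for H2-Q5, 34.97% for H2-Q6, 26.5% for H2-Q7, 19.1% for H2-Q10 and 14.5% for H2-T23, so reads could be split between copies and these values are uncertain. It was 12.8% for H2-D1 and 9.63% for H2-K1. H2-Q4, which had the highest level among them, stood at 147, 216, 178 and 114 CPM in YFP-positive cells, against 178, 238, 192 and 135 CPM in YFP-negative cells. It was lower in the YFP-positive library of all 4 pairs, by a log2 fold change of -0.19 ± 0.07 (SE), which did not pass the threshold (adjusted p = 0.215, paired edgeR), and the gene Gm11131 overlaps its exons on the other strand.

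H2-Q10, a soluble class I molecule best known from the liver and named here after its values were seen, went the other way. It stood at 17.5, 24.8, 31.0 and 16.3 CPM in YFP-positive cells, against 10.2, 20.3, 24.0 and 12.5 CPM in YFP-negative cells. All 4 pairs were higher in YFP-positive cells while the groups overlapped, and the log2 fold change was 0.45 ± 0.15 (SE; adjusted p = 0.181, paired edgeR). H2-Q4 and H2-Q10 thus had fold changes of opposite sign in the same pairs.

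H2-Q6, of the Qa-2 family, and H2-T23, which encodes Qa-1, a ligand of inhibitory receptors on natural killer cells, varied more with the replicate number than with YFP. H2-Q6 stood at 61.2, 136, 80.0 and 34.7 CPM in YFP-positive cells, against 63.2, 149, 67.4 and 29.3 CPM in YFP-negative cells. H2-T23 stood at 59.1, 46.7, 90.2 and 52.6 CPM in YFP-positive cells, against 52.6, 50.4, 108 and 53.2 CPM in YFP-negative cells. H2-Q6 was highest in the libraries numbered 2 and H2-T23 in those numbered 3, in both groups. Log2 fold changes were 0.075 ± 0.087 for H2-Q6 and -0.055 ± 0.090 for H2-T23 (SE), and that of H2-T23 turned to 0.031 with library sizes alone.

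Most genes of the table did the same. The range of the 4 pair means, on the log2 scale, was wider than the size of the fold change in 14654 of all 15945 genes tested. It was wider in 20 of 20 class I genes tested and in 7 of 8 class II genes, Ciita being the exception. A range over pairs is easily wider than 1 averaged difference, so this is no trait of class I. H2-M3, which presents formylated peptides of bacteria and mitochondria, lay between 11.8 and 17.8 CPM in YFP-positive cells and between 14.2 and 17.3 CPM in YFP-negative cells. H2-Q5, H2-Q7, H2-T22, H2-K2 and H2-T24 had fold changes between -0.16 and 0.084 on the log2 scale. Of these, H2-K2 is annotated as a pseudogene and H2-Q5 as a polymorphic pseudogene.

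**Figure D2:**
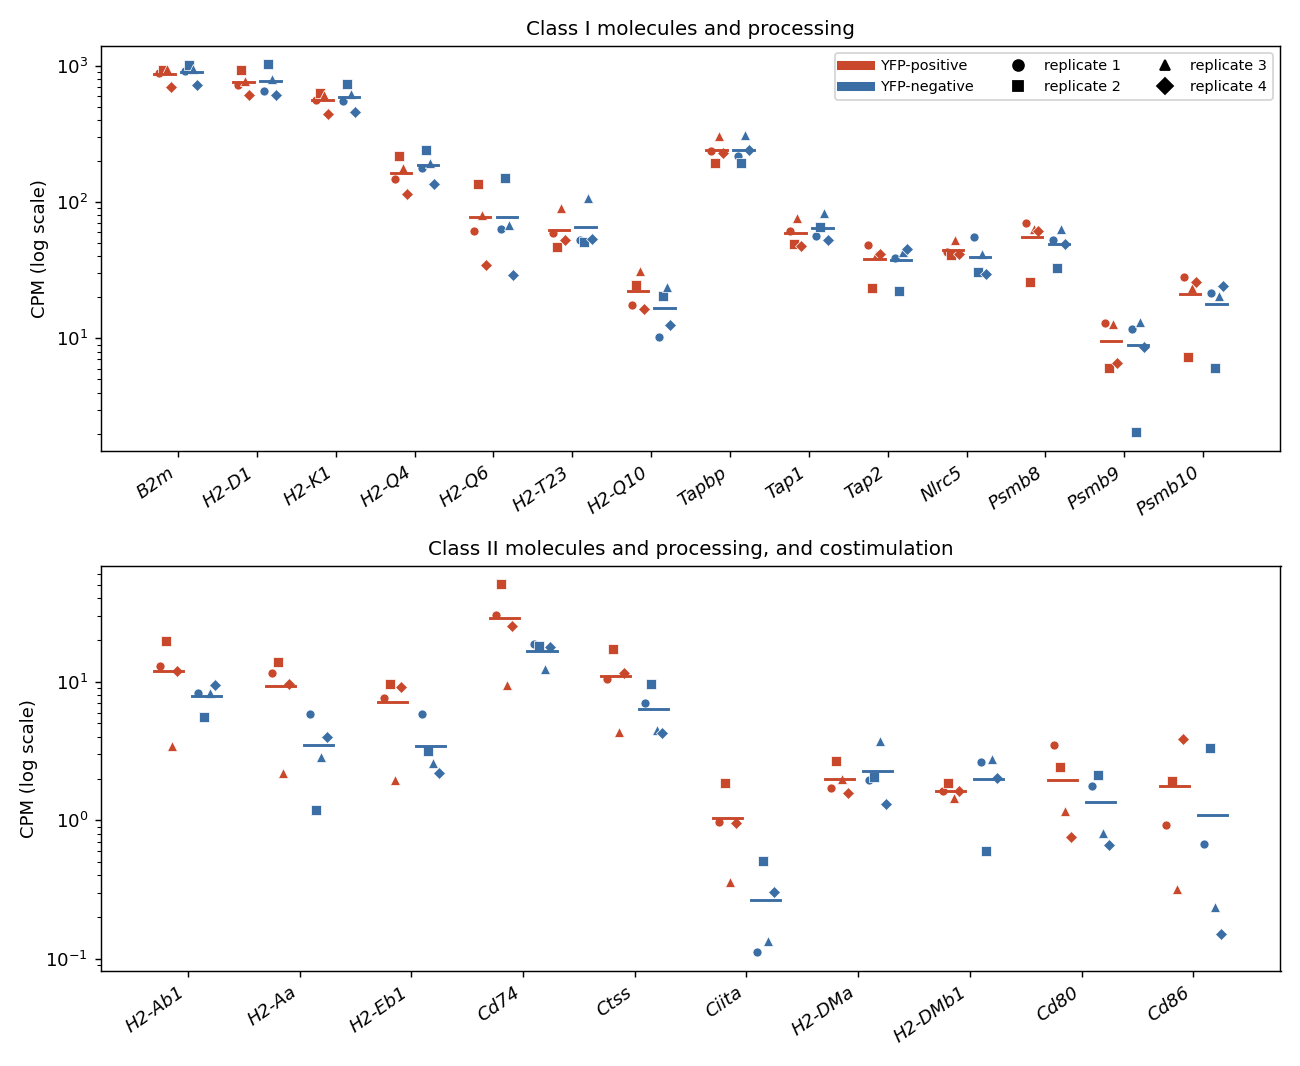
TMM-scaled CPM (log scale) of 14 class I genes (top) and of 8 class II and 2 costimulation genes (bottom) in each library, with YFP-positive libraries left of YFP-negative ones, symbols for the replicate number and bars for group means. In most class I genes the replicate numbers lie farther apart than the group means, and in H2-Aa, H2-Eb1, Cd74 and Ciita replicates 1, 2 and 4 of YFP-positive cells lie above the YFP-negative library of their number while replicate 3 of YFP-positive cells is the lowest of its group.

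Genes that prepare peptides for class I had small fold changes. Tap1, Tap2, Psmb8 and Psmb9 lie side by side on chromosome 17, from 34181987 to 34216321, and Tapbp lies apart from them at 33915899 to 33929292. Tapbp encodes tapasin, which bridges class I to the TAP transporter, and stood at 238, 194, 303 and 227 CPM in YFP-positive cells, against 216, 192, 309 and 239 CPM in YFP-negative cells. The transporter subunit Tap1 stood at 61.7, 49.2, 76.8 and 47.5 CPM in YFP-positive cells, against 55.8, 65.9, 82.8 and 52.2 CPM in YFP-negative cells. Its partner Tap2 stood at 48.2, 23.5, 40.6 and 41.4 CPM in YFP-positive cells, against 38.9, 22.2, 43.2 and 44.8 CPM in YFP-negative cells. The groups overlapped for all of them, and the log2 fold changes were 0.013 ± 0.065 for Tapbp, -0.13 ± 0.10 for Tap1 and 0.046 ± 0.11 for Tap2 (SE). That of Tap1 was -0.034 without the pair numbered 2 and -0.22 without the pair numbered 1. Annotated genes overlap the exons of Tapbp (Zbtb22, Gm19412), Tap1 (Psmb9) and Tap2 (Gm15821, Gm20496), and since the sources used here do not state whether counting used strand, these counts may include reads of their neighbours.

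The 3 immunoproteasome subunits replace constitutive subunits of the proteasome when interferon gamma acts on a cell. Psmb8 stood at 70.5, 25.9, 63.8 and 61.7 CPM in YFP-positive cells, against 52.7, 32.9, 62.8 and 49.4 CPM in YFP-negative cells. Psmb9 stood at 12.95, 6.01, 12.6 and 6.57 CPM in YFP-positive cells, against 11.8, 2.04, 13.2 and 8.70 CPM in YFP-negative cells. Psmb10 stood at 28.0, 7.32, 23.2 and 25.8 CPM in YFP-positive cells, against 21.4, 6.05, 20.3 and 24.1 CPM in YFP-negative cells. All 3 were lowest in the libraries numbered 2 of both groups, which were also those that stood apart in the whole table, and Psmb10 was higher in the YFP-positive library of each pair. The log2 fold changes were 0.12 ± 0.12 for Psmb8, 0.22 ± 0.27 for Psmb9 and 0.24 ± 0.15 for Psmb10 (SE). The lowest adjusted p of these 3 was 0.645, for Psmb10 (paired edgeR). Psmb9 had a log2 fold change of -0.11 without the pair numbered 2, that of Psmb8 was 0.017 without the pair numbered 1 and 0.25 without the pair numbered 2, and Gm20496 overlaps exons of Psmb8.

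Set against the constitutive subunit it replaces, and per kilobase of exon, Psmb8 was present at 1.98 ± 0.720 times the level of Psmb5 in YFP-positive cells and at 2.26 ± 0.525 times in YFP-negative cells (SD, n = 4 each). Psmb10 was present at 1.13 ± 0.512 times the level of Psmb7 in YFP-positive cells and at 1.15 ± 0.576 times in YFP-negative cells. Psmb9 was present at 0.130 ± 0.0533 times the level of Psmb6 in YFP-positive cells and at 0.118 ± 0.0628 times in YFP-negative cells. The ratios of the groups overlapped for all 3 subunits. In the pair numbered 2 the ratio of Psmb10 to Psmb7 was 0.365 in YFP-positive cells and 0.317 in YFP-negative cells, while it was at least 1.27 in the other 6 libraries.

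Nlrc5, the transactivator of class I (chromosome 8, 94434356 to 94527272), stood at 43.1, 40.7, 52.9 and 41.4 CPM in YFP-positive cells, against 55.5, 30.4, 41.3 and 29.4 CPM in YFP-negative cells. Pairs 2, 3 and 4 were higher in YFP-positive cells and pair 1 was lower. Nlrc5 had a log2 fold change of 0.22 ± 0.13 (SE), with an adjusted p of 0.620 in the paired edgeR fit. It was 0.42 without the pair numbered 1 and 0.13 without the pair numbered 4. The gene 9330175E14Rik overlaps its exons on the other strand.

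The class II genes were low in both fractions and mostly higher in YFP-positive cells, without passing the threshold. H2-Aa, the alpha chain of I-A (chromosome 17, 34282744 to 34287823), stood at 11.5, 13.9, 2.20 and 9.58 CPM in YFP-positive cells, against 5.90, 1.19, 2.87 and 4.00 CPM in YFP-negative cells. YFP-positive replicates 1, 2 and 4 were above all 4 YFP-negative libraries, and YFP-positive replicate 3 lay within their range. The log2 fold change was 1.24 ± 0.54 (SE; 95% interval 0.018 to 2.47; adjusted p = 0.439, paired edgeR). It was 0.65 without the pair numbered 2, where the libraries differed most, and 1.78 without the pair numbered 3.

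H2-Ab1, the beta chain of I-A (chromosome 17, 34257689 to 34269419), stood at 13.1, 19.6, 3.44 and 11.99 CPM in YFP-positive cells, against 8.24, 5.54, 8.30 and 9.56 CPM in YFP-negative cells. H2-Eb1, the beta chain of I-E (chromosome 17, 34305867 to 34316674), stood at 7.68, 9.67, 1.96 and 9.18 CPM in YFP-positive cells, against 5.84, 3.15, 2.60 and 2.18 CPM in YFP-negative cells. In both genes YFP-positive replicate 3 was the lowest of all 8 libraries, and the other 3 YFP-positive libraries were above all YFP-negative ones. The log2 fold change was 0.39 ± 0.45 for H2-Ab1 and 0.92 ± 0.39 for H2-Eb1 (SE), with adjusted p of 0.871 and 0.369 in the paired edgeR fit. That of H2-Ab1 was -0.060 without the pair numbered 2 and 0.91 without the pair numbered 3, and that of H2-Eb1 was 0.53 without the pair numbered 4 and 1.35 without the pair numbered 3.

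Cd74, the invariant chain that escorts class II molecules (chromosome 18, 60803848 to 60812652), stood at 30.5, 50.8, 9.56 and 25.3 CPM in YFP-positive cells, against 18.8, 18.2, 12.3 and 17.9 CPM in YFP-negative cells. It had the same arrangement as the molecules it escorts, with YFP-positive replicate 3 lowest and replicate 2 highest. The log2 fold change was 0.58 ± 0.25 (SE; 95% interval 0.017 to 1.15; adjusted p = 0.433, paired edgeR). With any gene of at least 1 count admitted to the same fit, Cd74 and H2-Aa were the 2 members called higher, at adjusted p of 0.00966 and 0.00476, beside 0.85% of the 29762 genes then tested. The log2 fold change of Cd74 was 0.29 without the pair numbered 2 and 0.89 without the pair numbered 3.

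Ctss, cathepsin S, which trims the invariant chain (chromosome 3, 95526786 to 95556403), stood at 10.4, 17.4, 4.36 and 11.5 CPM in YFP-positive cells, against 7.01, 9.71, 4.45 and 4.25 CPM in YFP-negative cells. It was close to equal in the pair numbered 3 and higher in YFP-positive cells in the other 3. Ctss had a log2 fold change of 0.71 ± 0.25 (SE), with an adjusted p of 0.231 in the paired edgeR fit, and was at 0.47 without the pair numbered 4.

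Ciita, the transactivator of class II (chromosome 16, 10480059 to 10528418), held 28, 27, 9 and 24 counts in YFP-positive libraries, against 2, 6, 4 and 6 counts in YFP-negative libraries. These counts amount to 0.964, 1.86, 0.360 and 0.950 CPM in YFP-positive cells, against 0.111, 0.511, 0.135 and 0.304 CPM in YFP-negative cells. It was higher in the YFP-positive library of every pair, while YFP-positive replicate 3 lay below YFP-negative replicate 2. Its log2 fold change was 1.94 ± 0.89 (SE; 95% interval 0.047 to 3.84; adjusted p = 0.434, paired edgeR). Ciita reached the CPM minimum of the filter in 3 YFP-positive libraries and 1 YFP-negative library, so it entered the test mainly through the group in which it was higher. The gene Dexi overlaps its exons on the other strand.

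The DM genes, whose product loads peptide on class II, shared this arrangement only in part. H2-DMa was higher in YFP-positive cells in pairs 2 and 4, and H2-DMb1 in pair 2 alone. Both were lower in pair 3, as most class II genes were. Within YFP-positive cells both were highest in replicate 2, and H2-DMb1 was lowest in replicate 3. H2-DMa stood at 1.72, 2.69, 2.00 and 1.58 CPM in YFP-positive cells, against 1.95, 2.04, 3.74 and 1.32 CPM in YFP-negative cells. H2-DMb1 stood at 1.62, 1.86, 1.44 and 1.62 CPM in YFP-positive cells, against 2.62, 0.596, 2.77 and 2.02 CPM in YFP-negative cells. The groups overlapped, the log2 fold changes were -0.12 ± 0.49 and -0.17 ± 0.58 (SE), and their 95% intervals of the fold ran from 0.450 to 1.89 and from 0.377 to 2.09. Brd2 overlaps exons of H2-DMa, and 22.7% of the 50-base stretches of H2-DMb1 occur in another gene.

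Taken pair by pair on log2 of CPM + 0.5, class II genes were higher in the YFP-positive library for 6, 8, 1 and 7 of the 8 tested in pairs 1 to 4. The 1 in pair 3 was Ciita. The median log2 ratio was 0.59, 1.34, -0.34 and 0.67 in the same pairs. Class I genes were higher for 13, 9, 9 and 9 of the 20 tested, with medians of 0.13, -0.12, -0.012 and -0.024. Most class II genes thus lay on the same side within a pair, higher in YFP-positive cells in pairs 1, 2 and 4 and lower in pair 3, and the class I medians lay close to 0 in every pair.

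Summed over all 40 class I genes, the level was 3076, 3395, 3414 and 2532 CPM in YFP-positive cells, against 3003, 3717, 3468 and 2567 CPM in YFP-negative cells. Summed over all 15 class II genes, it was 77.9, 118, 25.9 and 72.0 CPM in YFP-positive cells, against 51.2, 41.8, 38.0 and 41.7 CPM in YFP-negative cells. Class II therefore came to 2.53%, 3.48%, 0.758% and 2.84% of class I in YFP-positive cells, against 1.70%, 1.13%, 1.09% and 1.62% in YFP-negative cells. The YFP-negative shares lay close together, whereas YFP-positive cells held both the highest 3 shares and the lowest.

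**Figure D3:**
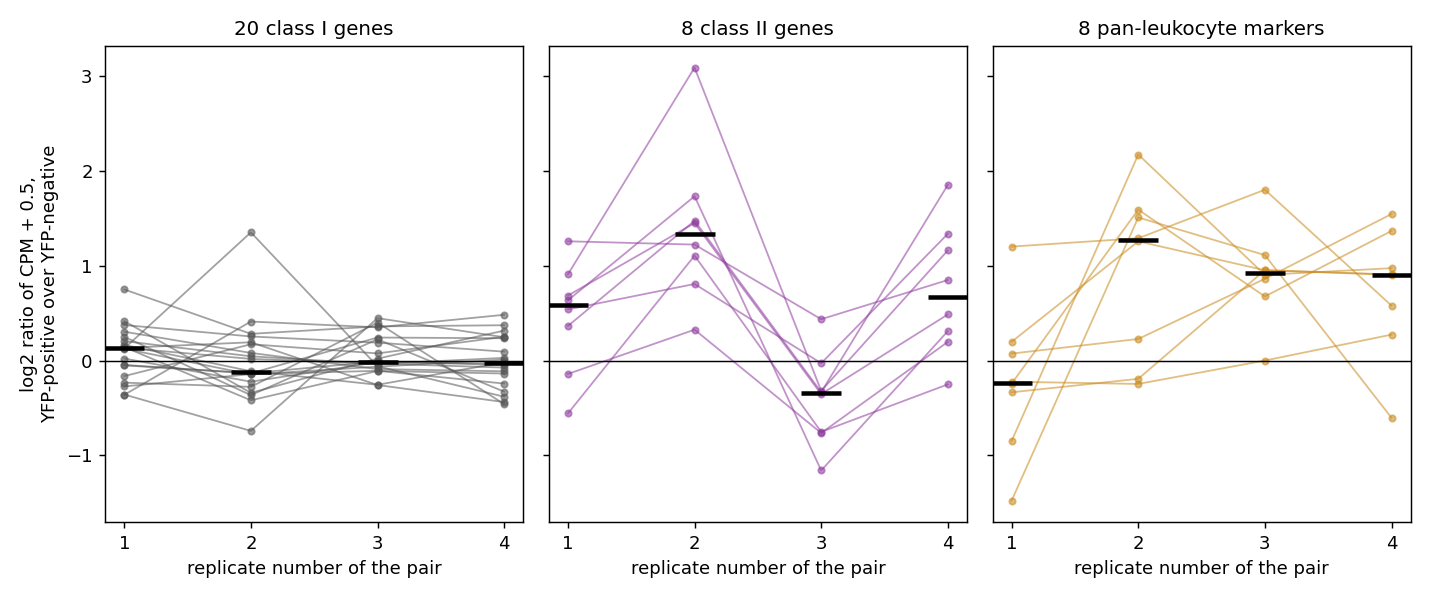
Log2 ratio of YFP-positive over YFP-negative CPM, each with 0.5 added, in pairs 1 to 4 for the tested class I genes (left), class II genes (middle) and pan-leukocyte markers (right); lines join the values of a gene and black bars are medians. Class II medians are 0.59, 1.34, -0.34 and 0.67, pan-leukocyte medians are -0.23, 1.28, 0.93 and 0.91, and class I stays near 0.

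Markers of CD45-expressing cells moved with class II in some pairs and not in others. The 8 pan-leukocyte markers, all of them detected, summed to 22.3, 51.8, 15.6 and 34.4 CPM in YFP-positive cells, against 28.1, 22.3, 7.25 and 15.6 CPM in YFP-negative cells. Of these 8, 3, 6, 8 and 7 were higher in YFP-positive cells in pairs 1 to 4, with median log2 ratios of -0.23, 1.28, 0.93 and 0.91. In pair 1 class II was higher in YFP-positive cells while leukocyte markers were lower, in pair 3 the reverse held, and in pairs 2 and 4 both were higher. Within YFP-positive cells, class II and leukocyte markers were both highest in replicate 2 and lowest in replicate 3. None of the 8 was called in the paired edgeR fit, and their median log2 fold change was 0.93.

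Among antigen-presenting cells, the 9 macrophage markers other than Cx3cr1 summed to 31.0, 47.0, 18.1 and 31.9 CPM in YFP-positive cells, against 21.1, 47.1, 20.5 and 22.9 CPM in YFP-negative cells. Like class II these 9 were higher in YFP-positive cells in pairs 1 and 4 and lower in pair 3, and were close to equal in pair 2. In YFP-positive cells they too were highest in replicate 2 and lowest in replicate 3. With Cx3cr1 included, the 10 markers summed to 101, 116, 71.9 and 56.7 CPM in YFP-positive cells. The same sums were 87.0, 127, 84.8 and 62.8 CPM in YFP-negative cells. The full list was thus higher in YFP-positive cells in pair 1 only. Cx3cr1 by itself averaged 54.6 ± 21.2 CPM in YFP-positive cells and 62.6 ± 16.7 CPM in YFP-negative cells, more than the other 9 markers together in every library but YFP-positive replicate 4. Csf1r, the receptor of macrophages for their growth factor, averaged 5.64 ± 2.90 CPM in YFP-positive cells and 2.41 ± 1.67 CPM in YFP-negative cells (log2 fold change 1.32; adjusted p = 0.0755, paired edgeR), and was named after its values were seen. The others of the list went both ways. Adgre1 was higher in YFP-positive cells in all 4 pairs (log2 fold change 1.11), and Lyz2 stood at 0.64, C1qa at 0.48 and C1qb at 0.26. Cd68 was lower in YFP-positive cells in all 4 pairs (log2 fold change -0.46), Cx3cr1 stood at -0.26, C1qc at -0.087 and Mrc1 at 0.019. Of the 9 macrophage markers tested, 6 had fitted fold changes above 0, the median was 0.26, and 0 were called in the paired edgeR fit. Of 7 dendritic cell markers, Xcr1 was at 0 in every library. The 6 other than Zbtb46 summed to 0.44 to 4.97 CPM in YFP-positive cells and 0.98 to 2.95 CPM in YFP-negative cells. Zbtb46 by itself exceeded these 6 together in every library. It stood at 13.98, 19.06, 16.24 and 18.29 CPM in YFP-positive cells, against 16.42, 17.04, 12.07 and 14.52 CPM in YFP-negative cells. Zbtb46 was thus higher in YFP-positive cells in 3 of 4 pairs (log2 fold change 0.17; adjusted p = 0.823, paired edgeR). B cell markers summed to 1.11 to 3.31 CPM in YFP-positive cells and 2.06 to 5.96 CPM in YFP-negative cells.

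Epithelial cells of the intestine can also make class II, and their 7 markers summed to 16.3, 34.1, 11.4 and 119 CPM in YFP-positive cells, against 33.4, 18.6, 16.5 and 28.4 CPM in YFP-negative cells. They were thus higher in YFP-positive cells in pairs 2 and 4 and lower in pairs 1 and 3, while class II was higher in pair 1. The 8 endothelial markers summed to 30.8, 61.9, 61.8 and 135 CPM in YFP-positive cells, against 64.1, 109, 41.1 and 39.1 CPM in YFP-negative cells, and were lower in the YFP-positive cells of pair 2, where class II differed most. The part of leukocyte, epithelial and endothelial RNA in the class II values was not tested.

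**Figure D4:**
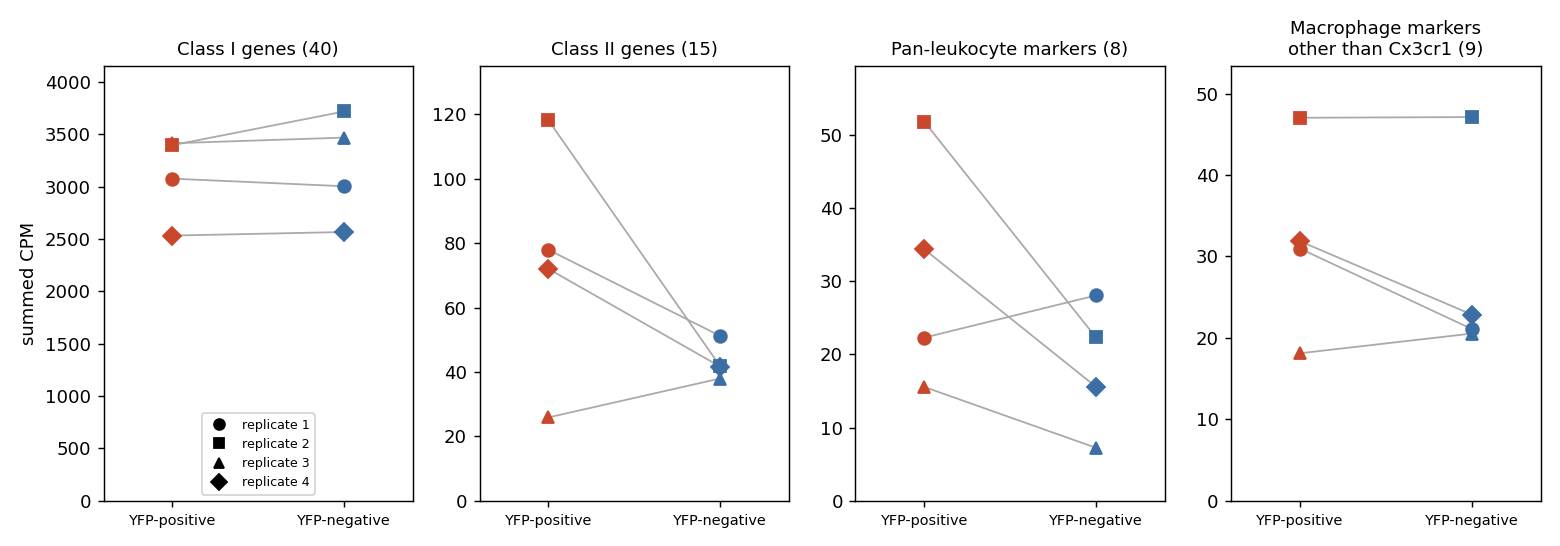
Summed CPM of all class I genes, all class II genes, pan-leukocyte markers and macrophage markers other than Cx3cr1 in each library, YFP-positive left and YFP-negative right, with grey lines joining libraries of equal replicate number. Class I lines are nearly flat, class II ranges from 25.9 to 118 CPM in YFP-positive cells and from 38.0 to 51.2 CPM in YFP-negative cells, and in pairs 1 and 3 the class II and pan-leukocyte lines slope in opposite directions.

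The costimulatory ligands Cd80 and Cd86, which engage CD28 on T cells, were low in both fractions. Cd80 stood at 3.48, 2.42, 1.16 and 0.752 CPM in YFP-positive cells, against 1.78, 2.13, 0.809 and 0.658 CPM in YFP-negative cells. Cd86 stood at 0.930, 1.93, 0.320 and 3.88 CPM in YFP-positive cells, against 0.668, 3.32, 0.236 and 0.152 CPM in YFP-negative cells. Cd80 was higher in the YFP-positive library of all 4 pairs, and Cd86 had a single high library in each group, numbered 4 among YFP-positive and 2 among YFP-negative cells. The log2 fold changes were 0.47 ± 0.55 for Cd80 and 0.93 ± 0.86 for Cd86 (SE), and the 95% intervals of the fold ran from 0.615 to 3.14 and from 0.534 to 6.83. The log2 fold change of Cd86 was 0.0083 without the pair numbered 4 and 1.68 without the pair numbered 2, and that of Cd80 was 0.30 without the pair numbered 1.

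The remaining 28 members did not pass the count filter. Among them 11 had 0 counts in all 8 libraries, at a depth where 3 counts amount to 0.101 to 0.256 CPM: H2-M10.1 to H2-M10.6, H2-M10.5-ps1, H2-M11 and H2-T10 of class I, H2-Ea-ps, the polymorphic pseudogene of the I-E alpha chain, and H2-Ke6. The other 17, of which 11 were class I and 6 class II, held at most 39 counts per group of 4 libraries. H2-M9 held 24 counts in YFP-positive cells, 9 in replicate 3 and 15 in replicate 4, and 0 counts in YFP-negative cells. H2-Oa and H2-Ob, the chains of the DO molecule that restrains DM, held 7 and 10 counts in YFP-positive cells and 5 and 5 counts in YFP-negative cells. At these counts no difference could be detected. A count of 0 need not mean that a gene was silent. Of the 50-base stretches of H2-Ke6 and H2-T10, 70.5% and 50.4% occur in another gene, in that order. Gm20427 also overlaps exons of H2-Ke6 on the same strand, so reads of these genes may not have been assigned to them.

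Genes of the pathway outside the rule were not called either: 0 of the 44 tested in 7 lists were called in the paired edgeR fit, beside the 2.28% above, and 6 had an unadjusted p of 0.05 or below, beside 1772 of all 15945 genes tested. Median log2 fold changes were 0.025 for class I loading and trimming (9 genes tested), 0.21 for the constitutive proteasome subunits (3), -0.14 for lysosomal proteases and class II ubiquitin ligases (8), -0.037 for transcription factors of MHC genes (10), 0.00030 for the interferon gamma receptor pathway (5), -0.034 for class I-like molecules (5) and 0.15 for other costimulatory and checkpoint ligands (4). Calr, the chaperone calreticulin, averaged 1010 ± 281 CPM in YFP-positive cells and 981 ± 244 CPM in YFP-negative cells, and the protease Ctsb 944 ± 64.7 and 980 ± 61.8 CPM in the same order. Irf1, an activator of MHC promoters, averaged 284 ± 108 CPM in YFP-positive cells and 308 ± 90.8 CPM in YFP-negative cells and was lower in YFP-positive cells in all 4 pairs (log2 fold change -0.16; adjusted p = 0.424, paired edgeR). In the interferon gamma receptor list the members went both ways: Ifngr1, a receptor chain, was higher in YFP-positive cells in all 4 pairs (log2 fold change 0.20; adjusted p = 0.131, paired edgeR). Socs1, an inhibitor of the pathway, was lower in all 4 (log2 fold change -0.65; adjusted p = 0.160, paired edgeR); both were named after their values were seen. The receptor-associated kinase Jak1 averaged 621 ± 176 and 664 ± 192 CPM in YFP-positive and YFP-negative cells, in that order. In the same order, the proteasome subunit Psmb7 averaged 37.9 ± 4.00 and 32.8 ± 3.84 CPM. The neonatal Fc receptor chain Fcgrt averaged 101 ± 18.4 and 110 ± 19.9 CPM, and the ligand Icosl 118 ± 25.5 and 101 ± 16.3 CPM, again in that order.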

How the data were processed

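Per the labels' protocols, sorted cells were lysed and stranded total RNA libraries were made with a low-input SMARTer kit. The submitters' processing notes list DESeq2, featureCounts 2.0.1, STAR 2.7.3a and cutadapt 3.4, and the build GRCm38. They do not state the annotation release or the strand setting. The authors deposited raw counts per gene and library, and, per the file headers, log2 fold changes with p-values and adjusted p-values of their own comparison. DESeq2 1.42.0 with the replicate number as a term gave log2 fold changes within 0.000500 of the authors' deposited table for all 29762 genes, so that table was taken as a paired comparison.

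The counts were fitted with edgeR 4.0.16 in R 4.3.3 (filterByExpr by group, TMM factors, robust quasi-likelihood, two-sided, Benjamini-Hochberg over 15945 genes, threshold 0.05), on group alone as the planned fit and with the replicate number as a block. Fold changes, standard errors and 95% intervals of single genes are from the blocked fit. The labels do not say that equal numbers share a mouse. Log2 CPM values, centred on their group mean, correlated at 0.233 to 0.487 between libraries of equal number and at most at 0.0456 between different numbers across groups, and the numbers were taken to pair the libraries from the data. At 1 CPM a gene held 12.5 counts in the smallest library and 29.4 in the largest. No libraries were merged. Levels between genes are CPM per kilobase of GENCODE M21 exons (RPKM). Shared sequence was measured on 50-base stretches of GENCODE M21 transcripts. Lists are described without a test.

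The members and gene lists were chosen with earlier results of these data known. Named in every case were the classical molecules, the processing, costimulation and gate genes, the 3 most abundant other class I molecules, and the most abundant gene of each pathway list with no call. H2-Q10, Csf1r, Coro1a, Adgre1, Lyz2, C1qa, C1qb, Cd68, C1qc, Mrc1, Ifngr1 and Socs1 were added after their values were seen. The sums without Cx3cr1 and without Zbtb46 were not in the planned lists. Alternatives were RLE factors, library sizes alone, a looser count filter (any count of at least 1) and a stricter one (CPM of at least 2 in 4 libraries), DESeq2, limma 3.58.1 voom with quality weights, mitochondrial genes left out, classical molecules alone, the block or its absence, and each library or pair left out; DESeq2 on all listed genes was added after seeing the data. The fits were tested on simulated data.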

Additional observations from a re-analysis of the deposited data

Results flagged for a closer look

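Of 62 groups of 4 libraries checked, 3 held a library whose gap to its nearest neighbour, over the range of the group, exceeded Dixon's 95% critical value; chance flags about 1 in 20 groups, or 5.0%. H2-T23, which encodes Qa-1, stood at 108 CPM in YFP-negative replicate 3 and at 50.4 to 53.2 CPM in the other YFP-negative libraries; it was also highest in replicate 3 of YFP-positive cells, at 90.2 CPM. Cd74, the invariant chain, stood at 12.3 CPM in YFP-negative replicate 3 and at 17.9 to 18.8 CPM in the other YFP-negative libraries, and YFP-positive replicate 3, at 9.56 CPM, was the lowest of its group too. Cd86, a costimulatory ligand, stood at 3.32 CPM in YFP-negative replicate 2, which is 39 counts, and at 0.152 to 0.668 CPM in the other YFP-negative libraries.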

How the results depend on the processing

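On group alone, edgeR called 0 genes; 111 higher and 253 lower were called with the replicate block, and DESeq2 called 2 lower, with its own filter or on all listed genes. In the paired fit, the 111 higher and 253 lower genes became 212 and 153 with library sizes alone, 253 and 420 with the looser count filter, 228 and 388 with voom, 0 and 0 with no replicate block, and 169 higher with DESeq2; with a pair left out they ranged from 38 to 130 higher and from 119 to 296 lower. The 0 members called higher became 2 with the looser filter, H2-Aa and Cd74, and the block changed no other member's call. Csf1r passed the threshold with the looser filter and with DESeq2 on either gene set, and the leukocyte marker Coro1a with DESeq2. The cause was not tested.

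Fold changes turned sign with library sizes alone for H2-K1 (0.026), H2-D1 (0.069), B2m (0.028) and H2-T23 (0.031). With a pair left out, log2 fold changes ranged from -0.064 to 0.025 for H2-D1, -0.043 to 0.10 for Tap2, -0.027 to 0.042 for Tapbp, -0.11 to 0.44 for Psmb9, -0.060 to 0.91 for H2-Ab1, -0.28 to 0.16 for H2-DMa, -0.65 to 0.12 for H2-DMb1, -0.42 to 0.72 for Pecam1 and -0.13 to 0.015 for H2-T23. None of these passed the threshold. Over all alternatives the class I median lay between -0.052 and 0.084 and the class II median between 0.29 and 0.93. Without the pair numbered 2, Ciita no longer passed the filter. Low counts limit the class II, DM and costimulation genes, shared sequence limits the Qa and TL genes, and all values rest on the GRCm38 sequence of these polymorphic genes, the strain being unstated in the sources used here.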
